A study of Mus musculus with 18 samples.

Results

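The 40 genes described here serve fatty acid oxidation, ketone body metabolism and the targets of the fatty acid receptor PPAR-alpha in the mouse liver. They were taken as a named list and matched by gene symbol to the deposited tables, which held all 40 of them, out of 50600 genes in livers taken 1 day after the operation and 17127 genes in livers taken 12 h after it. All 40 had enough counts to be tested. The study asked how hepatocyte mineralocorticoid receptor (MR, gene Nr3c2) takes part in the response of the liver to myocardial infarction (MI), which was produced by tying off the left anterior descending coronary artery for good, with a sham operation as its control. At 1 day there were 4 groups of 3 livers: HMRKO + MI, HMRKO + sham, LC + MI and LC + sham. HMRKO mice, labelled MR-/-, carry floxed MR alleles and Cre recombinase under the albumin promoter, which acts in hepatocytes, so that the other cells of the liver keep the gene. Littermate control (LC) mice, labelled wild type, carry the floxed alleles without Cre. At 12 h there were 3 livers of purchased C57 mice after MI and 3 after sham operation, also labelled wild type. All mice are labelled C57BL/6 and 12 weeks of age, and the study used males. No source gives the time of day or the food intake at which livers were taken.

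Between meals the liver burns fatty acids that reach it from fat tissue. Long chains are bound by Fabp1, activated to acyl-CoA, and carried into mitochondria by the carnitine shuttle (Cpt1a, Slc25a20 and Cpt2), whose first enzyme sets the pace. Inside, dehydrogenases, hydratases and thiolases shorten the chain in cycles, electrons leave through the flavoproteins Etfa, Etfb and Etfdh, and the acetyl-CoA that results can be turned into ketone bodies. Peroxisomes shorten very long and branched chains, and the Cyp4a enzymes of the endoplasmic reticulum oxidize the far end of the chain. PPAR-alpha pairs with RXR on a direct repeat of the hexamer AGGTCA, is active in fasting, and raises many of these genes, with Cyp4a10 and Cyp4a14 among its most responsive targets in mouse liver.

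All 7 hepatocyte markers found in the tables were detected in every library. At 1 day, libraries held 19098704 to 28945526 counts, and the scarcest member had at least 12 counts in every liver. At 12 h the MI libraries held 16745645 to 19190405 counts and the sham libraries only 1361506 to 2255782, so depth and operation cannot be told apart there. The targeted gene Nr3c2 had 0.895, 1.10 and 0.913 CPM (the count divided by the library size as scaled by TMM) in HMRKO + MI livers and 3.56, 2.13 and 1.90 CPM in LC + MI livers. It had 2.93, 3.76 and 2.54 CPM in HMRKO + sham livers, against 5.60, 6.70 and 4.71 CPM in LC + sham livers, with no overlap in either pair. The difference passed after MI (−1.36, SE 0.29, edgeR adjusted p = 0.00505) but not between the sham groups (−0.88, SE 0.25, adjusted p = 0.472), and the HMRKO + sham and LC + MI livers overlapped. Nr3c2 also fell with MI in LC livers (−1.18, SE 0.26, edgeR adjusted p = 0.0238) and in HMRKO livers (−1.65, SE 0.29, adjusted p = 0.000756). Its effect of MI did not differ detectably between genotypes (difference −0.48). 1 liver stood apart for these genes, HMRKO + MI replicate 3, which was the highest of its group for 37 of the 40.

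After MI, members were called in both directions in HMRKO livers and few were called in LC livers, as was the case for all genes. The test of a difference between the genotypes in the effect of MI, the interaction, passed for 1 member upward and 2 downward, in a background of 6.74% and 8.5% of all genes. A gene is called higher or lower here at a Benjamini-Hochberg adjusted p under 0.05 from edgeR over all 14266 genes tested at 1 day. In HMRKO livers, 12 members were higher and 11 lower after MI, in a background of 22% and 21.7% of all genes. In LC livers, 3 were higher and 1 lower, in a background of 2.68% and 2.33%. The median log2 fold change of the 40 was 0.06 in HMRKO and 0.05 in LC livers, beside 0.01 over all genes in each. The 4 members called in LC livers, Cyp4a10, Cyp4a14, Hacl1 and Fabp1, were called in the same direction in HMRKO livers. With the additional requirement of a change over 2-fold, which the study used, HMRKO livers had 5 higher and 5 lower members (9.06% and 11.4% of all genes) and LC livers 3 and 1 (1.44% and 1.04%). Without HMRKO + MI replicate 3 the count in HMRKO livers was 6 higher and 14 lower, with a background of 18.3% and 18.7%, and with library totals as the only scaling it was 7 and 12. In LC livers 0 to 2 were higher when LC + sham replicate 1, 2 or 3 or LC + MI replicate 2 or 3 was left out, and 4 without LC + MI replicate 1. The counts with library totals and these LC counts are given without the share of all genes, which can move with the setting too. They do not show whether members moved more than other genes. In bulk tissue, less RNA per cell and fewer cells of a type cannot be told apart.

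**Figure D1:**
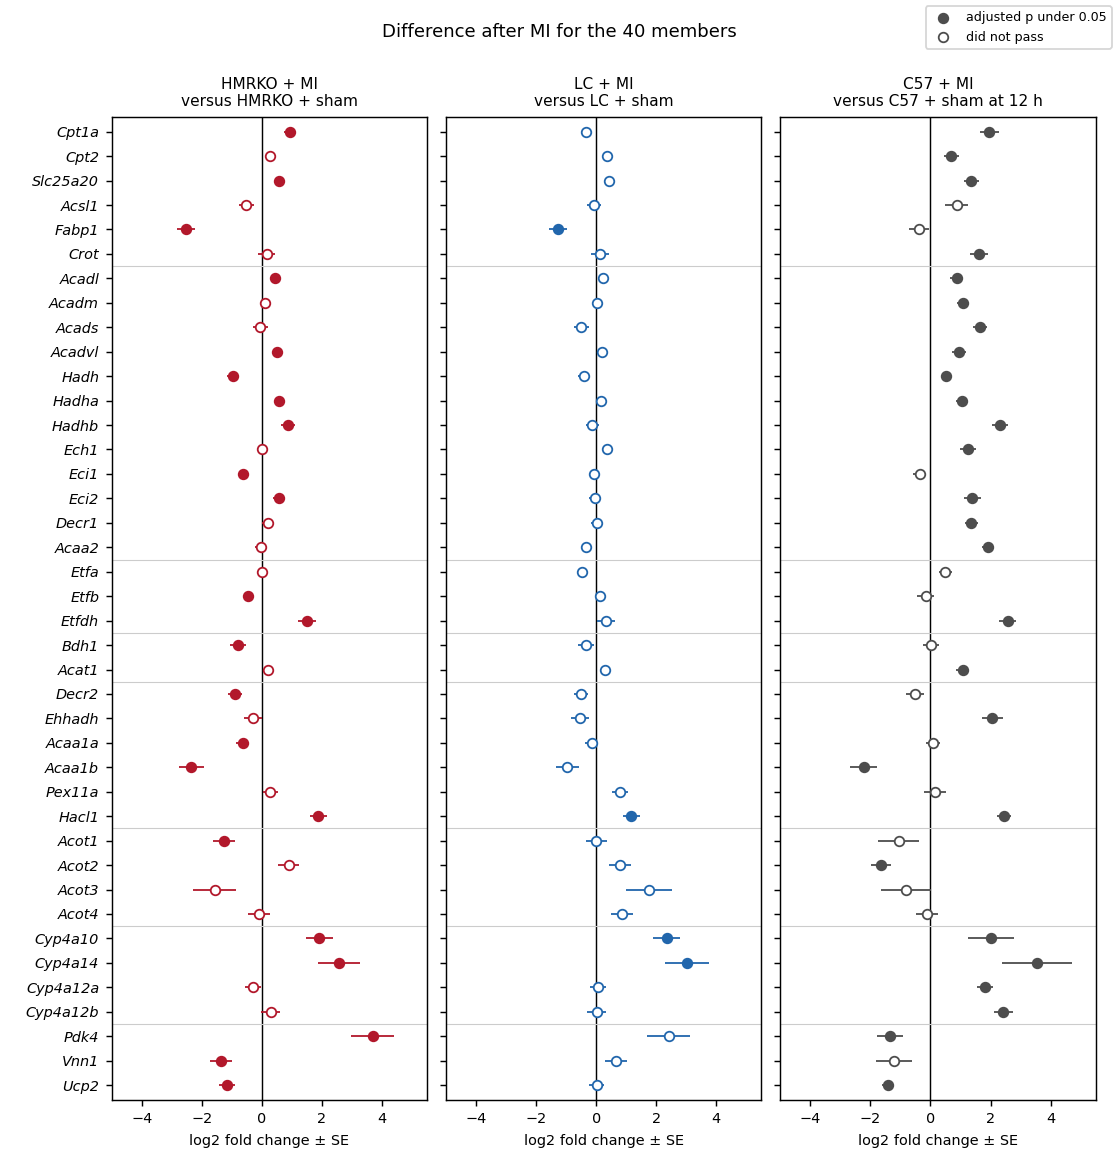
Log2 fold change after MI (horizontal axis, with the standard error as bars) of each of the 40 members (vertical axis, grouped by role) in HMRKO livers at 1 day, LC livers at 1 day and C57 livers at 12 h. Filled points passed an adjusted p of 0.05, with 12 higher and 11 lower in HMRKO, 3 and 1 in LC, and 23 and 4 in C57 livers.

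The omega-oxidation genes Cyp4a10 and Cyp4a14 gave the largest increases among the members called in LC livers. Cyp4a14 had 95.9, 191 and 346 CPM in LC + MI livers, against 47.4, 9.74 and 20.4 CPM in LC + sham livers (log2 fold change 3.03, SE 0.72, edgeR adjusted p = 0.0327). In HMRKO livers it had 98.5, 121 and 457 CPM after MI, against 20.2, 32 and 62.1 CPM after sham operation (2.56, SE 0.71, edgeR adjusted p = 0.0111). In both genotypes every MI liver lay above every sham liver, but the HMRKO call was lost without HMRKO + MI replicate 3. Cyp4a10 had 406, 571 and 649 CPM in LC + MI livers and 99.6, 91.3 and 128 CPM in LC + sham livers (2.35, SE 0.45, edgeR adjusted p = 0.0143). In HMRKO livers the corresponding values were 169, 381 and 740 CPM after MI and 71.0, 104 and 167 CPM after sham operation (1.91, SE 0.44, edgeR adjusted p = 0.00396). The lowest MI liver here only just cleared the highest sham liver. The effect of MI did not differ detectably between genotypes for either gene (difference −0.44, SE 0.60, edgeR adjusted p = 0.646 for Cyp4a10, and −0.47, SE 0.95, adjusted p = 0.762 for Cyp4a14). The neighbouring genes Cyp4a12a and Cyp4a12b, which are expressed in male liver, were not called in either genotype, with log2 fold changes between −0.31 and 0.29. Cyp4a12a and Cyp4a12b share 48.9% and 49.4% of the 50-base windows of their reference transcripts, so their reads are easily exchanged, whereas Cyp4a10 and Cyp4a14 share none. The LC calls are sensitive to single livers: the adjusted p of Cyp4a10 was 0.0512 when LC + MI replicate 3 was left out and 0.0589 when LC + sham replicate 2 was, and that of Cyp4a14 lay between 0.0782 and 0.116 on leaving out replicate 2 or 3 of either LC group.

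At the entry into the pathway, Fabp1 fell with MI in both genotypes and Cpt1a rose in HMRKO livers. Fabp1, the abundant cytosolic fatty acid binding protein of liver, had 1047, 668 and 1157 CPM in HMRKO + MI livers, against 5841, 5597 and 5078 CPM in HMRKO + sham livers (−2.52, SE 0.31, edgeR adjusted p = 8.72e-05). In LC livers it had 2484, 1380 and 1072 CPM after MI and 3176, 4509 and 4243 CPM after sham operation (−1.27, SE 0.30, edgeR adjusted p = 0.0305). MI livers lay below sham livers throughout, by the smallest margin in LC + MI replicate 1. The LC call did not hold when replicate 2 or 3 was left out of the LC + MI livers (adjusted p = 0.117 and 0.115) or of the LC + sham livers (0.0943 and 0.0800), while in HMRKO livers the largest adjusted p on leaving out a liver was 0.000712.

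Cpt1a, the outer membrane carnitine palmitoyltransferase, was the member with the smallest p for a difference in response between genotypes. It had 297, 269 and 455 CPM in HMRKO + MI livers, 189, 165 and 180 CPM in HMRKO + sham livers, 128, 138 and 125 CPM in LC + MI livers, and 158, 190 and 142 CPM in LC + sham livers. All HMRKO + MI livers stood above the other 9 livers, and the LC + MI livers were the lowest 3 of the 12. Cpt1a rose with MI in HMRKO livers (0.94, SE 0.19, edgeR adjusted p = 0.00206), had a log2 fold change of −0.33 in LC livers (SE 0.19, adjusted p = 0.348), and differed between the genotypes after MI by 1.39 (SE 0.19, adjusted p = 0.000911). The difference between the 2 effects of MI was 1.26 (SE 0.27, edgeR adjusted p = 0.0136), and between 1.00 and 1.41 when any 1 of the 12 livers was left out, with an adjusted p of at most 0.0361. Slc25a20, the carnitine-acylcarnitine carrier of the inner membrane, rose in HMRKO livers (0.57, SE 0.16, edgeR adjusted p = 0.0121), with 0.42 (SE 0.16, adjusted p = 0.143) in LC livers, and was not called in HMRKO livers with library totals or without HMRKO + MI replicate 3. Cpt2, the inner membrane transferase, Acsl1, which activates long chains, and Crot, the peroxisomal octanoyltransferase, were not called in either genotype, at log2 fold changes of −0.51 to 0.35.

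The windows from 250 bases before to 50 bases after the start site of Fabp1 and Cpt1a are printed because these 2 genes had the smallest p of the entry step in HMRKO livers, and because they hold the hexamer that PPAR-alpha and its partner read. The sequences are those of RefSeq on GRCm38.p6, 5′ to 3′ on the coding strand, at chr6:71199629-71199928 (plus strand) for Fabp1 and chr19:3323051-3323350 (plus strand) for Cpt1a. Capitals mark matches to AGGTCA or to the spaced repeat AGGNCANAGGNCA on either strand.
Fabp1: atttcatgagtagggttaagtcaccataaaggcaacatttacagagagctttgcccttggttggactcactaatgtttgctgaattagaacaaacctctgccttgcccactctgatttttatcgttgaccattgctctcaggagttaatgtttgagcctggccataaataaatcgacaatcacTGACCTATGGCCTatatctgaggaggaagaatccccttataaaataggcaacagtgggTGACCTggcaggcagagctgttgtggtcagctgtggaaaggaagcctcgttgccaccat
Cpt1a: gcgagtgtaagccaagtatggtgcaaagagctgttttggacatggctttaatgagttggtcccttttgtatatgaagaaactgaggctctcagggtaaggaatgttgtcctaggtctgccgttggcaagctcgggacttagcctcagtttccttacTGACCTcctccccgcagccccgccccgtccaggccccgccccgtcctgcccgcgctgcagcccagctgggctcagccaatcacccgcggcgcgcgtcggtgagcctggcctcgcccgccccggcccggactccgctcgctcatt
The Fabp1 window holds the spaced repeat on the minus strand, 67 bases before the start site, as AGGCCATAGGTCA, which contains an AGGTCA, and a separate AGGTCA 9 bases before the start. The Cpt1a window holds a lone AGGTCA 94 bases before the start. No window was matched for 8 members: Cyp4a10, Cyp4a14, Cyp4a12a, Cyp4a12b, Vnn1, Decr1, Acaa2 and Acat1. Windows were matched for 32 of the 40 members (35 windows). Of these 35, 7 windows (20%) held AGGTCA, beside 16.3% of all 32851 windows in the table, and 1 (2.86%) held the spaced repeat, beside 0.381%. The hexamer was thus nearly as common in windows of other genes, and the match is a description of the letters, not of binding. The perfect repeat AGGTCANAGGTCA was in none of the members' windows and in 0.0396% of all windows.

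Within the mitochondrial cycle the 12 enzymes did not move as a block at 1 day. In HMRKO livers 5 rose: Acadl and Acadvl, the long and very long chain dehydrogenases (0.42, SE 0.13, and 0.49, SE 0.15), Hadha and Hadhb, the subunits of the trifunctional protein (0.55, SE 0.17, and 0.87, SE 0.23), and Eci2, an enoyl-CoA isomerase (0.58, SE 0.20), with edgeR adjusted p values between 0.00932 and 0.0322. In the same livers 2 fell. Hadh, the dehydrogenase for medium and short chains, had 88.8, 72.4 and 126 CPM in HMRKO + MI livers, against 186, 153 and 220 CPM in HMRKO + sham livers (−0.96, SE 0.21, edgeR adjusted p = 0.00278), with no overlap. Eci1, the other isomerase, changed by −0.63 (SE 0.16, edgeR adjusted p = 0.00793). The medium and short chain dehydrogenases Acadm and Acads, the dienoyl-CoA isomerase Ech1, the reductase Decr1 and the thiolase Acaa2 stayed between −0.05 and 0.20 and were not called. In LC livers none of the 12 was called, with log2 fold changes between −0.49 and 0.34 and 6 of them above 0. Of the 5 that rose only Hadhb was still called without HMRKO + MI replicate 3, or with library totals, whereas Hadh and Eci1 were called without that liver.

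Hadha and Hadhb are read in opposite directions from start sites 273 bases apart on chromosome 5, and the windows of the 2 genes overlap by 228 bases. The Hadhb window is printed to show that shared stretch, in capitals, since the 2 subunits rose together in HMRKO livers. It lies at chr5:30155003-30155302 (plus strand) and the Hadha window at chr5:30154931-30155230 (minus strand), in RefSeq on GRCm38.p6. Neither window held AGGTCA.
Hadhb: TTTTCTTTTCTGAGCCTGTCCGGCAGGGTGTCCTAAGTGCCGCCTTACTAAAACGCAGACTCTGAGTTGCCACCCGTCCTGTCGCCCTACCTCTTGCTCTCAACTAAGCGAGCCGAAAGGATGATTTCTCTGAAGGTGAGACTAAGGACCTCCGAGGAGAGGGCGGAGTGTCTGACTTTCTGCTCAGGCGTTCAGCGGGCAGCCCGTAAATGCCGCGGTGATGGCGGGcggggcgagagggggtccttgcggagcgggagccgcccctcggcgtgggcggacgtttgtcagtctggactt
Hadhb had 99.8, 118 and 164 CPM in HMRKO + MI livers, 82.1, 54.3 and 72.8 CPM in HMRKO + sham livers, 54.4, 76.2 and 72.0 CPM in LC + MI livers, and 55.2, 88.7 and 77.0 CPM in LC + sham livers. Its HMRKO + MI values were the highest 3 of the 12. It differed between the genotypes after MI by 0.91 (SE 0.23, edgeR adjusted p = 0.0119), with an adjusted p of 0.0518 without LC + MI replicate 1 and 0.0522 without HMRKO + MI replicate 3. For Hadha the same difference was 0.36 (SE 0.17, edgeR adjusted p = 0.111). Whether the 2 genes differ from each other was not tested.

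The electron transfer genes parted from one another. Etfdh, the dehydrogenase that hands electrons to ubiquinone, had 121, 129 and 180 CPM in HMRKO + MI livers, 62.4, 32.8 and 56.0 CPM in HMRKO + sham livers, 46.1, 81.7 and 69.6 CPM in LC + MI livers, and 36.9, 68.5 and 52.3 CPM in LC + sham livers. The HMRKO + MI livers stood clear of all others, while the remaining groups overlapped. Etfdh rose with MI in HMRKO livers (1.51, SE 0.29, edgeR adjusted p = 0.00146) and was higher in HMRKO + MI than in LC + MI livers by 1.12 (SE 0.29, adjusted p = 0.0126), with an adjusted p of 0.0539 without LC + MI replicate 1. Etfb, a subunit of the electron transfer flavoprotein, had 344, 347 and 358 CPM in HMRKO + MI livers, 451, 544 and 464 CPM in HMRKO + sham livers, 617, 490 and 482 CPM in LC + MI livers, and 466, 477 and 496 CPM in LC + sham livers. It was the only member lower in HMRKO + MI than in LC + MI livers (−0.60, SE 0.15, edgeR adjusted p = 0.00956), and its HMRKO + MI livers were the lowest 3 of the 12. Its partner subunit Etfa had 133, 133 and 173 CPM in HMRKO + MI livers and 97.6, 111 and 112 CPM in LC + MI livers (0.45, SE 0.16, edgeR adjusted p = 0.0447), a call that was lost when any 1 of those 6 livers was left out, with adjusted p values from 0.0516 to 0.174.

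After MI, 6 members were higher and 1 lower in HMRKO + MI than in LC + MI livers, in a background of 14.6% and 16.2% of all genes, and 3 and 0 with a change over 2-fold (4.58% and 7.77%). Besides Cpt1a, Hadhb, Etfdh, Etfa and Etfb these were Eci2 and Acot2. Eci2 had 198, 170 and 230 CPM in HMRKO + MI livers and 133, 116 and 102 CPM in LC + MI livers (0.77, SE 0.20, edgeR adjusted p = 0.0134), with an adjusted p of 0.0507 without HMRKO + MI replicate 3. The median over the 40 members was 0.04, beside −0.01 over all genes. Without LC + MI replicate 1, 2 members were higher (Cpt1a and Eci2), and without HMRKO + MI replicate 3 also 2 (Cpt1a and Etfdh), with backgrounds of 8.21% and 9.84%. Cpt1a and Etfb were called in both of these cases. LC + MI replicate 1 had the largest share of counts from mitochondrially encoded genes at 1 day (18.9%, against 7.53% to 15.6% in the other 11 livers), and with those genes left out the counts were again 6 and 1.

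**Figure D2:**
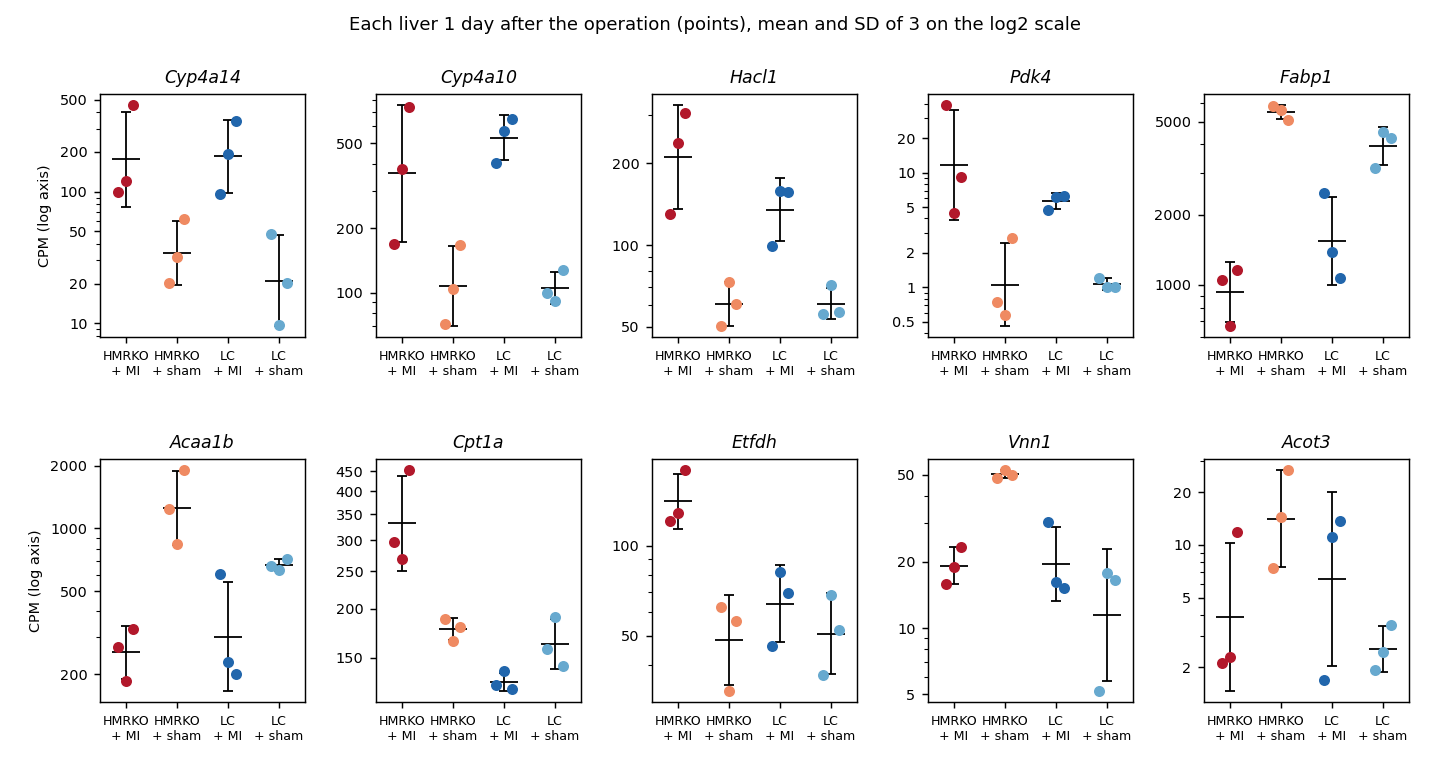
CPM on a log axis in each liver 1 day after the operation for 10 members, with replicates 1, 2 and 3 from left to right and the mean and SD of the 3 log2 values as bars. Cyp4a14, Cyp4a10 and Hacl1 stand higher in MI than in sham livers of both genotypes, Fabp1 lower, and Cpt1a and Etfdh are highest in the 3 HMRKO + MI livers.

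The peroxisomal genes held both an increase that every MI liver shared and one of the deepest decreases. Hacl1, the lyase that shortens branched chains in alpha-oxidation, had 130, 237 and 306 CPM in HMRKO + MI livers, against 50.5, 73.1 and 60.5 CPM in HMRKO + sham livers (1.87, SE 0.28, edgeR adjusted p = 0.000337). In LC livers it had 98.9, 158 and 157 CPM after MI, against 55.9, 71.1 and 56.8 CPM after sham operation (1.17, SE 0.28, edgeR adjusted p = 0.0327). All 6 MI livers lay above all 6 sham livers. The LC call was lost when replicate 2 or 3 was left out of the LC + MI livers (adjusted p = 0.113 and 0.116) and when any of the LC + sham livers was (0.0772, 0.0697 and 0.104), at log2 fold changes of 1.06 to 1.36.

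Acaa1b, a peroxisomal thiolase, had 270, 185 and 329 CPM in HMRKO + MI livers, against 1233, 841 and 1914 CPM in HMRKO + sham livers (−2.35, SE 0.41, edgeR adjusted p = 0.000789). It had 603, 229 and 200 CPM in LC + MI livers, against 664, 630 and 716 CPM in LC + sham livers (−0.96, SE 0.39, edgeR adjusted p = 0.176). LC + MI replicate 1 lay close to the LC + sham livers and the other LC + MI livers far below them, and without that replicate the LC difference was called. Its copy Acaa1a had 159, 182 and 269 CPM in HMRKO + MI livers and 313, 309 and 330 CPM in HMRKO + sham livers (−0.64, SE 0.21, edgeR adjusted p = 0.0271). The 2 genes share 34.0% and 35.5% of their 50-base transcript windows, so reads could have been divided between them. Decr2, the peroxisomal dienoyl-CoA reductase, fell in HMRKO livers (−0.91, SE 0.23, edgeR adjusted p = 0.00692). The bifunctional enzyme Ehhadh and the proliferation factor Pex11a, both known PPAR-alpha targets, were not called in either genotype, with log2 fold changes of −0.30 and 0.28 in HMRKO livers and −0.55 and 0.79 in LC livers.

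The acyl-CoA thioesterases Acot1 to Acot4, which release free fatty acid from acyl-CoA and lie in 1 cluster of related genes, were scarce and variable. Acot1 had 2.18, 1.79 and 3.81 CPM in HMRKO + MI livers and 5.78, 4.96 and 7.90 CPM in HMRKO + sham livers (−1.27, SE 0.36, edgeR adjusted p = 0.0126). Acot2 had 10.2, 4.49 and 7.26 CPM in HMRKO + MI livers and 2.50, 3.94 and 4.08 CPM in LC + MI livers (1.04, SE 0.36, edgeR adjusted p = 0.0443). That call was lost in 5 of the 6 cases of leaving out 1 liver, all but HMRKO + MI replicate 2, with adjusted p values up to 0.174. Acot3 had 2.12, 2.30 and 11.9 CPM in HMRKO + MI livers, 7.37, 14.4 and 26.6 CPM in HMRKO + sham livers, 1.70, 11.1 and 13.6 CPM in LC + MI livers, and 1.94, 2.44 and 3.51 CPM in LC + sham livers. Replicates of a group differed several-fold, and only LC + sham livers were uniformly low. Its effect of MI differed between genotypes by −3.34 (SE 1.04, edgeR adjusted p = 0.0482), which was lost in 9 of the 12 cases of leaving out 1 liver, with adjusted p values up to 0.109 and differences of −4.61 to −2.76. Acot4 was not called in any comparison with all livers, though it was higher in LC livers without LC + MI replicate 1, and had 16.4, 15.5 and 24.3 CPM in HMRKO + MI, 13.5, 19 and 27.6 CPM in HMRKO + sham, 7.41, 22.0 and 23.5 CPM in LC + MI and 8.26, 10.1 and 10.7 CPM in LC + sham livers. Acot1 and Acot2 share 23.7% and 24.5% of their 50-base windows, and Acot3 and Acot4 3.58% and 1.97%.

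Among the ketone body enzymes of the set, Bdh1, which makes hydroxybutyrate, fell in HMRKO livers after MI (−0.79, SE 0.28, edgeR adjusted p = 0.0334), where replicate 1 was the lowest at 44.9 CPM, against 104 and 118 CPM in replicates 2 and 3. The acetyl-CoA acetyltransferase Acat1 was not called (0.19, SE 0.16 in HMRKO and 0.28, SE 0.16 in LC livers). Pdk4, the kinase that shuts pyruvate out of oxidation in fasting, had 39.3, 4.49 and 9.19 CPM in HMRKO + MI livers, against 0.754, 0.578 and 2.72 CPM in HMRKO + sham livers (3.69, SE 0.72, edgeR adjusted p = 0.00158). The groups did not overlap, but HMRKO + MI replicate 1 was over 4 times as high as either of the other 2. Without that liver the log2 fold change was 2.33 (adjusted p = 0.00468), and without HMRKO + sham replicate 3 it was 4.70. In LC livers it had 4.76, 6.11 and 6.30 CPM after MI and 1.22, 1.00 and 1.01 CPM after sham operation, also without overlap (2.41, SE 0.72, edgeR adjusted p = 0.0737), a difference that DESeq2 and edgeR with no filter called. Ucp2, an inner membrane carrier, had 24.8, 18.4 and 23.2 CPM in HMRKO + MI livers and 32.7, 44.8 and 70.4 CPM in HMRKO + sham livers (−1.16, SE 0.27, edgeR adjusted p = 0.00432). Ucp2 is also expressed by Kupffer cells, the macrophages of the liver, of whose 9 markers 1 rose and 2 fell in HMRKO livers, with summed levels of 88 to 171 CPM after MI and 128 to 195 CPM after sham operation. The part of these cells in the result was not tested.

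In sham-operated livers no member differed between HMRKO and LC livers by edgeR, in a background of 0.021% of all genes higher and 0.014% lower. At an unadjusted p under 0.05, 7 members were higher and 0 lower, beside 2.92% and 2.95% of all genes. DESeq2 called 1 member and edgeR without a filter on low counts called 2. The share of all genes called by these alternatives is not given here, so their counts do not set members apart from other genes. The log2 fold change was above 0 for 34 of the 40, with a median of 0.16 beside −0.01 over all genes, and the groups did not overlap for 9 members, each of them higher in HMRKO + sham livers (5.36% of all genes were higher and 5.78% lower in that sense). LC + sham replicate 1 was the lowest of its group for 31 of the 40 members, and without it the median was 0.08. The smallest p belonged to Vnn1, a pantetheinase and PPAR-alpha target, with 48.3, 52.6 and 49.9 CPM in HMRKO + sham livers and 5.17, 17.7 and 16.5 CPM in LC + sham livers (1.94, SE 0.38, edgeR adjusted p = 0.132). These 3 HMRKO livers were tightly grouped and far above every other liver for this gene. Next came Acot3 (2.61, SE 0.76, edgeR adjusted p = 0.477).

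The interaction of genotype and operation, which asks whether MI acted differently in HMRKO and LC livers, passed for 1 member upward (Cpt1a) and 2 downward (Vnn1 and Acot3), shares of the members below the background given above. Vnn1 had 15.9, 19 and 23.4 CPM in HMRKO + MI livers and 30.5, 16.2 and 15.2 CPM in LC + MI livers, which overlap. With the sham values above, it fell in HMRKO livers (−1.37, SE 0.37, edgeR adjusted p = 0.00965), had a log2 fold change of 0.65 in LC livers (SE 0.37, adjusted p = 0.340), and the difference of the effects was −2.01 (SE 0.52, adjusted p = 0.0252). Vnn1 thus differed between genotypes by 1.94 in sham livers and by −0.08 after MI, or 0.31 after MI without LC + MI replicate 1. The call was lost on leaving out HMRKO + MI replicate 1 or 2 (adjusted p = 0.0581 and 0.0535), HMRKO + sham replicate 2 (0.0524) or LC + MI replicate 1 (0.0576). The median over the members was −0.09, beside 0.00 over all genes.

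**Figure D3:**
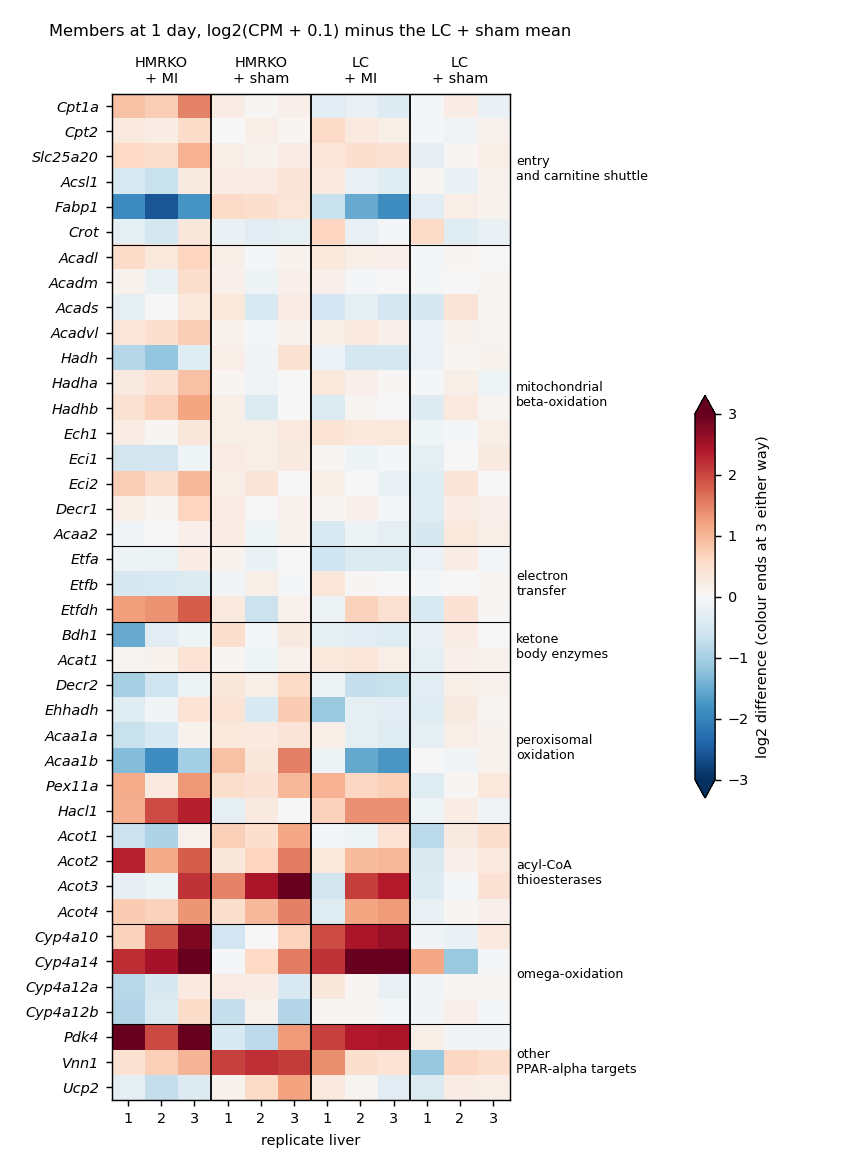
The 40 members (rows, grouped by role) in the 12 livers at 1 day (columns), as log2(CPM + 0.1) minus the mean of the LC + sham livers, with red higher and blue lower and colours ending at 3 either way. HMRKO + MI replicate 3 is the highest of its group in 37 rows, and Vnn1 is highest in the HMRKO + sham livers. Acot3 is high in HMRKO + sham livers, but also in LC + MI replicates 2 and 3 and in HMRKO + MI replicate 3. For neither gene did the difference between the sham groups pass by edgeR.

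At 12 h after MI, most genes of the mitochondrial pathway were higher in C57 + MI than in C57 + sham livers on the scale of the main test. Of the 40 members 23 were higher and 4 lower, in a background of 34.3% and 32% of the 12548 genes tested, and 19 and 4 with a change over 2-fold (25.5% and 26.7%). The median log2 fold change was 0.91, beside 0.11 over all genes. Over the 7 hepatocyte markers tested it was 1.65, and 6 of them were higher. In the mitochondrial cycle 11 of 12 members were higher, all but Eci1, and so were all 4 Cyp4a genes, whereas 2 of the 3 other PPAR-alpha targets and 1 of the 4 thioesterases were lower. These counts depend on the scaling, because all genes shift between scalings. With library totals alone the median of all genes was −0.54 and 14 members were higher and 10 lower (16.9% and 44.8% of all genes), and with the deposited TPM (a level per transcript length and library size) in limma it was −0.39, with 13 higher and 9 lower (18.7% and 42.5%). Under all 4 scalings, which were TMM, RLE, library totals and TPM, 13 members were higher: Cpt1a, Slc25a20, Crot, Acads, Hadhb, Eci2, Decr1, Acaa2, Etfdh, Ehhadh, Hacl1, Cyp4a12a and Cyp4a12b. Under all 4, 4 were lower: Acaa1b, Acot2, Pdk4 and Ucp2. The share of all genes called under all 4 scalings was not counted. The joint counts therefore do not show whether members moved more than other genes. The sign itself changed with the scaling for Hadh, Etfa, Acaa1a, Bdh1 and Pex11a.

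Among these 13, Hacl1 gave the smallest p, with 182, 165 and 242 CPM in C57 + MI livers, against 31.8, 33.6 and 42.4 CPM in C57 + sham livers (2.44, SE 0.24, edgeR adjusted p = 1.33e-05). Etfdh had 87.5, 145 and 160 CPM in C57 + MI livers and 18.3, 27.3 and 20.1 CPM in C57 + sham livers (2.57, SE 0.28, edgeR adjusted p = 2.58e-05). Neither gene came near an overlap of its groups. Acaa2, the mitochondrial thiolase, had 424, 485 and 529 CPM in C57 + MI livers and 127, 119 and 135 CPM in C57 + sham livers (1.92, SE 0.21, edgeR adjusted p = 3.00e-05). Hadhb had 78.5, 118 and 140 CPM in C57 + MI livers and 17.7, 21.0 and 27.8 CPM in C57 + sham livers (2.32, SE 0.27, edgeR adjusted p = 3.95e-05). The thiolase was the more even of these 2 within its groups. Acads, the short chain dehydrogenase, had 63.0, 64.6 and 71.6 CPM in C57 + MI livers and 30.1, 17.0 and 17.4 CPM in C57 + sham livers (1.66, SE 0.24, edgeR adjusted p = 0.000158). Decr1, the mitochondrial dienoyl-CoA reductase, had 113, 99.6 and 124 CPM in C57 + MI livers and 35.9, 44.3 and 50 CPM in C57 + sham livers (1.36, SE 0.20, edgeR adjusted p = 0.000194). These enzymes, too, had no overlap. Cpt1a had 310, 342 and 379 CPM in C57 + MI livers and 52.4, 84.6 and 125 CPM in C57 + sham livers (1.97, SE 0.30, edgeR adjusted p = 0.000229), with all MI livers well above the sham livers. Relative to the median of all genes, the log2 fold change of Hacl1 was 2.34 with TMM, 2.33 with library totals and 2.16 with TPM, and that of Etfdh 2.46, 2.45 and 2.25.

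**Figure D4:**
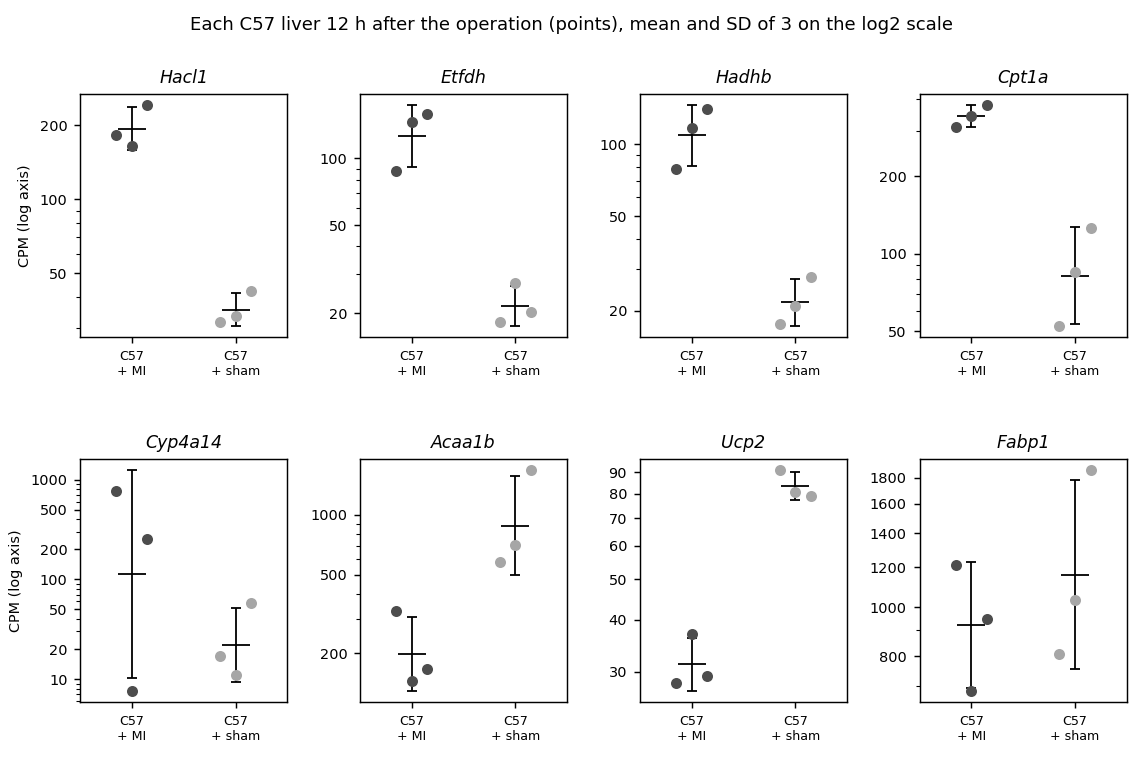
CPM on a log axis in each C57 liver 12 h after the operation for 8 members, with replicates 1, 2 and 3 from left to right and the mean and SD of the 3 log2 values as bars. Hacl1, Etfdh, Hadhb and Cpt1a are higher in all 3 C57 + MI livers, Acaa1b and Ucp2 lower, and the groups overlap for Cyp4a14 and Fabp1.

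The Cyp4a genes did not behave alike at 12 h. Cyp4a12b had 177, 92.9 and 153 CPM in C57 + MI livers and 21.8, 19.4 and 36.8 CPM in C57 + sham livers (2.42, SE 0.32, edgeR adjusted p = 8.10e-05), and Cyp4a12a moved the same way (1.82, SE 0.27, adjusted p = 0.000199). Cyp4a10 had 1507, 75.9 and 732 CPM in C57 + MI livers and 143, 124 and 303 CPM in C57 + sham livers (2.02, SE 0.77, edgeR adjusted p = 0.0381). Cyp4a14 had 761, 7.59 and 252 CPM in C57 + MI livers and 17.1, 11.1 and 57.3 CPM in C57 + sham livers (3.55, SE 1.16, edgeR adjusted p = 0.0192). For both genes C57 + MI replicate 2 lay below every sham liver, so the groups overlapped, and with TPM in limma neither passed (adjusted p = 0.543 and 0.305). That liver was the lowest of its group for 26 of the 40 members.

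Of the members that were lower at 12 h, Ucp2 had 28.2, 36.9 and 29.3 CPM in C57 + MI livers and 91.3, 80.7 and 79.2 CPM in C57 + sham livers (−1.41, SE 0.19, edgeR adjusted p = 9.95e-05). Acaa1b had 326, 145 and 167 CPM in C57 + MI livers and 579, 705 and 1691 CPM in C57 + sham livers (−2.22, SE 0.45, edgeR adjusted p = 0.00135). Both pairs of groups were separate. Acot2 had 19.2, 7.25 and 13 CPM in C57 + MI livers and 41.8, 29.7 and 52.1 CPM in C57 + sham livers (−1.65, SE 0.34, edgeR adjusted p = 0.00164), and Pdk4 was lower as well (−1.35, SE 0.43, adjusted p = 0.0171). Without C57 + MI replicate 1, 8 members were lower, a count given without the share of all genes in that setting. It does not show whether members moved more than other genes. Fabp1 was not called on the main scale, with 1212, 683 and 946 CPM in C57 + MI livers and 808, 1032 and 1869 CPM in C57 + sham livers, but passed as lower with library totals and with TPM (adjusted p = 0.0342 and 0.0476). Acot1, Acot3, Acot4 and Acaa1a were not called, at log2 fold changes of −1.05, −0.81, −0.11 and 0.09. In the sham libraries 18 members had a lowest count under 100 and 2 under 10, and for Acot3 it was 1. Acot1 passed as lower with library totals (adjusted p = 0.0493).

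Per length of transcript, as TPM, Fabp1 was the most abundant member at 12 h, at 2284 ± 659 TPM in C57 + MI livers and 4598 ± 2118 TPM in C57 + sham livers (SD, n = 3 each). In C57 + MI livers Etfb (530 ± 203 TPM), Cyp4a10 (416 ± 383 TPM), Acaa2 (359 ± 45.6 TPM) and Ech1 (323 ± 65.3 TPM) came next, at levels whose spreads overlapped. In C57 + sham livers the second was Acaa1b, at 1171 ± 728 TPM, which stood in the ninth place in C57 + MI livers at 160 ± 76.5 TPM. The scarcest member in each group was Acot3, at 1.07 ± 0.71 TPM in C57 + MI livers and 2.72 ± 3.60 TPM in C57 + sham livers.

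Set side by side, 11 members were higher after MI both in HMRKO livers at 1 day and in C57 livers at 12 h, which share no control: Cpt1a, Slc25a20, Acadl, Acadvl, Hadha, Hadhb, Eci2, Etfdh, Hacl1, Cyp4a10 and Cyp4a14. These are 91.7% of the 12 members higher in HMRKO livers and 47.8% of the 23 higher in C57 livers, beside 67.3% and 44.3% of such calls over the 11538 genes tested at both times. Acaa1b and Ucp2 were lower in both, which is 18.2% of the 11 members lower in HMRKO livers and 50% of the 4 lower in C57 livers, beside 50.5% and 39.3% over all genes. Pdk4 was higher in HMRKO livers at 1 day and lower in C57 livers at 12 h, and Hadh lower in HMRKO livers and higher in C57 livers, the last a direction that changed with the scaling. Hacl1 was higher in HMRKO, LC and C57 livers, at 12 h under all 4 scalings. Cyp4a10 and Cyp4a14 were called higher in the same 3 comparisons, but at 12 h with overlapping groups and not with TPM, and Cyp4a10 not with library totals either (adjusted p = 0.14). Acsl1, Pex11a and Acot4 were called in no comparison by the edgeR test with all livers. Under alternatives, Pex11a was higher in LC livers by DESeq2 and with no filter, and Acsl1 was lower in HMRKO livers with library totals and without HMRKO + MI replicate 3. The experiments differ in mice, time and table, and the difference between them was not tested.

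A further list of 62 genes of the same pathways outside the set, of which 61 were tested at 1 day and 60 at 12 h, was counted in the same way. In HMRKO livers 17 were higher and 13 lower after MI, in a background of 22% and 21.7% of all genes. In LC livers the counts were 8 and 2 (2.68% and 2.33% of all genes). Between HMRKO + MI and LC + MI livers they were 15 and 2 (14.6% and 16.2%). Between the sham groups they were 0 and 0 (0.021% and 0.014%), and in the interaction 5 and 4 (6.74% and 8.5%). At 12 h they were 33 and 10 (34.3% and 32%). The median log2 fold change was 0.31 for HMRKO + MI against LC + MI and 0.90 at 12 h, beside −0.01 and 0.11 over all genes. Slc16a1, the transporter that exports ketone bodies and lactate, had 80.7, 66.5 and 72.8 CPM in HMRKO + MI livers, 19.7, 12.5 and 14.1 CPM in HMRKO + sham livers, 27.4, 39.0 and 33.8 CPM in LC + MI livers, and 19.8, 19 and 17.2 CPM in LC + sham livers. It rose with MI in each genotype (2.25, SE 0.18, edgeR adjusted p = 1.02e-05 in HMRKO, and 0.84, SE 0.18, adjusted p = 0.0203 in LC livers), by more in HMRKO livers (difference 1.40, SE 0.25, adjusted p = 0.00812), and at 12 h (3.08, SE 0.23, adjusted p = 4.77e-06). At each time every MI liver exceeded every sham liver for this gene. Fgf21, a fasting hormone and PPAR-alpha target, rose in HMRKO (4.92, SE 0.48, edgeR adjusted p = 2.25e-05) and LC livers (2.40, SE 0.48, adjusted p = 0.0185). Pnpla2, the triglyceride lipase that frees fatty acids, had 132, 123 and 143 CPM in HMRKO + MI livers and 52.2, 58.2 and 57.3 CPM in LC + MI livers (1.25, SE 0.14, edgeR adjusted p = 0.000383), and its effect of MI differed by 1.22 (SE 0.19, adjusted p = 0.00613). Pdk2, a kinase of the same family as Pdk4, went the other way and was lower in HMRKO + MI than in LC + MI livers (−1.25, SE 0.20, edgeR adjusted p = 0.00161). The receptor gene itself, Ppara, had 27.1, 22.6 and 31.8 CPM in HMRKO + MI livers and 11.4, 14.1 and 11.5 CPM in LC + MI livers (1.14, SE 0.25, edgeR adjusted p = 0.00580). Ppara was named after its values were seen.

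Other gene groups moved in the same livers. Of 14 clock genes tested, 3 were higher and 7 lower after MI in HMRKO livers, 2 and 6 in LC livers, and 8 and 4 at 12 h, and Dbp, an output gene of the clock, had log2 fold changes of −5.09, −4.37 and −5.39 in these 3 comparisons and passed in each. Many oxidation genes follow the clock and feeding. Of 11 genes of the fed state, 2 were higher and 5 lower in HMRKO livers, 0 and 1 in LC livers, and 5 and 4 at 12 h. The hepatocyte markers summed to 90970 to 96100 CPM in HMRKO + MI livers and 47360 to 63740 CPM in HMRKO + sham livers, to 68960 to 80230 CPM in LC + MI livers and 68380 to 74760 CPM in LC + sham livers, and at 12 h to 88310 to 127100 CPM in C57 + MI livers and 30220 to 32650 CPM in C57 + sham livers. Of the 7 markers 3 were higher and 0 lower in HMRKO livers, 1 and 0 in LC livers and 6 and 0 at 12 h. The 1 called in LC livers was Fgb (0.94, SE 0.21, edgeR adjusted p = 0.0277), the only 1 of the 7 above 0 there. The LC median over the 7 was −0.03. Fgb was also among the 3 called in HMRKO livers (2.80, SE 0.23, edgeR adjusted p = 1.02e-05). The 9 neutrophil markers summed to 30.4 to 33.6 CPM in HMRKO + MI livers and 9.01 to 14.1 CPM in HMRKO + sham livers, and 5 of the 6 that were tested were higher. They summed to 10.9 to 20.6 CPM in LC + MI livers and 4.71 to 13.3 CPM in LC + sham livers, with 0 of 6 called, and to 45.7 to 91.4 CPM in C57 + MI livers and 136 to 181 CPM in C57 + sham livers, with 5 higher and 2 lower of 8. Of the 9 Kupffer cell markers 4 were lower in LC livers (129 to 145 CPM in LC + MI and 207 to 282 CPM in LC + sham livers in sum) and 1 at 12 h. Lymphocyte markers were lower in 3 of 6 tested in HMRKO livers, 0 of 6 in LC livers and 2 of 2 at 12 h. At 12 h, 4 of 5 stellate cell markers were lower (110 to 155 CPM in C57 + MI and 213 to 258 CPM in C57 + sham livers in sum), and of 4 cholangiocyte markers 3 were lower and 1 higher. The part of clock phase, feeding and cell content in the values of the members was not tested.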

How the data were processed

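The 18 livers formed 2 experiments, with 12 livers at 1 day and 6 at 12 h. Titles gave the genotype and replicate, and GEO's design text gave the times and the operation of 1 day livers whose titles name none. For the 1 day livers the deposited table holds raw counts, made by the authors as reads per gene. The 12 h table deposited by the authors holds, per gene, estimated counts beside FPKM (not used) and TPM. Processing notes of the submitters list, with no role, mm9, DESeq2, TopHat2, HISAT2 2.1.0 and Bowtie2 2.2.3. How reads were counted, on which annotation and with which strand setting, was not given in the sources used here, and overlapping genes or near copies may share reads.

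Genes were filtered with filterByExpr (minimum count 10, minimum total 15), scaled by TMM and tested with the quasi-likelihood F test of edgeR 4.0.16 in R 4.3.3, with 1 coefficient per group, over all 12 livers at 1 day and over the 6 livers at 12 h, whose estimated counts were rounded to whole numbers. Adjustment was by Benjamini-Hochberg across every gene tested. Standard errors are the log2 fold change over the square root of F. The procedure was also run on simulated counts drawn from the mean levels and fitted spread of these data. That run could not test its response to single outlying livers or to the choice of scaling. No label says outright that each liver came from a separate mouse, so p values measure the spread between these samples.

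Alternatives were RLE, DESeq2 1.42.0, no filter, a mean count of at least 10, the replicate number as a block, mitochondrially encoded genes left out, only the groups compared, log2(TPM + 1) in limma 3.58.1 for genes with a mean of at least 1, a change over 2-fold, each liver left out, and library totals, the last chosen after seeing the data. Values per liver are given for up to 8 members with the smallest p in a comparison and for related gene families, and up to 6 genes of the further pathway list were named. The members and all lists were chosen with earlier results of these data known. Promoter windows are from RefSeq on GRCm38.p6, and shared 50-base windows were counted in GENCODE transcripts.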

Additional observations from a re-analysis of the deposited data

Results flagged for a closer look

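The effect of MI at 1 day differed between HMRKO and LC livers for 3 members by the interaction test in edgeR, as a difference of log2 fold changes of 1.26 for Cpt1a, −2.01 for Vnn1 and −3.34 for Acot3 (adjusted p = 0.0136, 0.0252 and 0.0482). Cpt1a was called with every 1 of the 12 livers left out in turn, Vnn1 was lost in 4 cases and Acot3 in 9. For Vnn1 the genotypes differed most in sham livers, by 1.94, and by −0.08 after MI. For Acot3 the corresponding values were 2.61 and −0.72, with 38 counts in the lowest HMRKO + MI liver.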

How the results depend on the processing

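For the called members with the smallest p, up to 8 in each comparison, no alternative changed the direction, 378 values kept their side of the threshold and 49 lost it, all in the LC comparison, in HMRKO + MI against LC + MI or in the interaction. Other members lost calls in HMRKO livers and at 12 h, where scaling also changed the sign of 5. Counts of members, higher and lower, moved as follows. The counts in this section are given without the share of all genes called, which can move with the setting too. They do not show whether members moved more than other genes. For LC livers after MI (3 and 1), DESeq2 gave 5 and 2, no filter 6 and 2, and only the groups compared 4 and 0. For HMRKO livers (12 and 11), library totals gave 7 and 12, and over 2-fold 5 and 5. For HMRKO + MI against LC + MI (6 and 1), over 2-fold gave 3 and 0, DESeq2 8 and 2, no filter 7 and 2, and library totals 4 and 2. Between sham groups (0 and 0), DESeq2 gave 1 and no filter 2 higher. In the interaction (1 and 2), DESeq2 gave 3 and 6, no filter 3 and 6, and library totals 1 and 5. At 12 h (23 and 4), TPM in limma gave 13 and 9, and library totals 14 and 10. With library totals the median of all genes was −0.10 in LC, −0.13 in HMRKO and −0.54 in C57 livers.

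With 1 liver left out, the counts ranged over 0 to 4 higher and 0 to 2 lower in LC, 6 to 13 and 8 to 14 in HMRKO, 2 to 6 and 1 to 2 for HMRKO + MI against LC + MI, 0 and 0 between sham groups, 1 to 3 and 0 to 3 in the interaction, and 19 to 23 and 3 to 8 at 12 h. In LC livers 0 were higher without LC + MI replicate 3 or LC + sham replicate 2, and in the interaction 0 were lower without HMRKO + sham replicate 2, HMRKO + MI replicate 1 or 2. In the interaction, too, 3 were higher with LC + sham replicate 1 left out and 2 with LC + MI replicate 2 left out, and 1 was lower without any 1 of the LC + sham livers, LC + MI replicate 2 or HMRKO + sham replicate 3.

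Livers that share a replicate number did not deviate together (correlations of −0.171 to 0.182 at 1 day, over 0.1 in 3 of 18 pairs, and −0.089 to 0.0236 at 12 h). The replicate block gave 3 and 1 members in LC, 13 and 12 in HMRKO, 6 and 1 for HMRKO + MI against LC + MI, 1 and 3 in the interaction and 22 and 5 at 12 h, and among named members lost the call of Etfa (adjusted p = 0.063). Depth limits the 12 h sham libraries, where 18 members had under 100 counts in their lowest liver.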
